A study of Mus musculus with 18 samples.

Results

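Left ventricles of mice given isoproterenol together with minocycline were compared with those of mice given saline, across all genes of the deposited table. The libraries were chosen by the treatment label alone: 6 carried isoproterenol with minocycline and 6 were controls, out of 18 in all, and no measured value entered the choice. The mice were male, wild-type C57BL/6J, 12 weeks old. Treated animals received isoproterenol at 30 mg/kg/day from an osmotic pump and minocycline at 50 mg/kg by daily intraperitoneal injection, controls received sterile saline, and hearts were taken after 21 days. The remaining 6 libraries, from mice given the same isoproterenol without minocycline, are set beside the results only where the 2 infused groups are compared. No group given minocycline without isoproterenol was among the samples used here, so a difference from control cannot be told apart into the part of either drug. RNA came from whole ventricular tissue, in which fewer cells of a type and less RNA per cell cannot be told apart. The protocol text speaks of pooled RNA while each library carries a number of its own, so p-values here measure how libraries vary, which may or may not be how animals vary.

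Isoproterenol, a catecholamine made by synthesis, stimulates the β-adrenergic receptors. These receptors couple through stimulatory G proteins to adenylyl cyclase, and the cyclic AMP they raise drives protein kinase A, which speeds calcium cycling and contraction. Receptor kinases damp the signal when it persists. Sustained infusion in rodents is a standard model of hypertrophy, patchy cardiomyocyte loss and interstitial fibrosis. Minocycline is a tetracycline antibiotic that enters tissue well and has been studied for effects on matrix metalloproteinases, inflammatory cells and mitochondria. The adult mouse ventricle burns mainly fatty acids, and its contractile lattice is built on α-myosin heavy chain, encoded by Myh6.

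The 12 libraries held 17079823 to 22688664 counts. Totals and the share of counts from mitochondrially encoded genes did not differ past the threshold between the groups (means of 20208288 and 19670392 counts, exact 2-sided permutation p = 0.665, and 45.4 ± 1.23% and 44.6 ± 2.06%, SD, n = 6 each, p = 0.413, control first). All 7 defining markers of ventricular cardiomyocytes were abundant in each library, led by Myh6 at 21772 to 32271 CPM (counts scaled to the TMM-adjusted total of the library). Transcripts of other cells varied. The atrial light chain Myl7 exceeded 80 CPM in Control 5, Control 6 and Treated 2, with the libraries numbered within each group and those of isoproterenol with minocycline called treated. Of 7 tested markers of mesothelium and epicardium, the cell layer covering the heart, 2 were called higher. The mesothelial members Msln and Upk3b ranged from 0.123 to 1.78 and from 0.185 to 3.46 CPM in control. In treated libraries they ranged from 0.575 to 3.15 and from 0.633 to 4.25 CPM. Wt1, an epicardial marker, was at 2.14 to 8.8 CPM in control and at 2.24 to 11.6 CPM in treated libraries. It did not always follow the pair. Control 1 had 8.8 CPM of Wt1 but 0.123 CPM of Msln. Treated 2 had 2.24 CPM of Wt1 but 4.25 CPM of Upk3b, while Treated 6 had 11.6 and 2.98 CPM. The whole list summed to between 9.63 and 19.3 CPM in control and between 14.5 and 33.8 CPM in treated libraries. Adipocyte markers passed in 0 of 9 members by edgeR, DESeq2 or limma-voom, 3 at an unadjusted p under 0.05, with Adipoq at 0 to 1.97 CPM in control and at 0.46 to 4.17 CPM in treated libraries. Because these transcripts were uneven, counts of called genes are also given without these 3 Myl7-high libraries and 1 of isoproterenol alone, and with the mean of Msln and Upk3b as a covariate, a mean whose own level was uneven between the groups.

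Of 48709 genes in the table, 13281 had enough counts to test. Those higher in the treated ventricles numbered 1355 (10.2%) and those lower numbered 1202 (9.05%), at an adjusted p under 0.05 in the quasi-likelihood test of edgeR, adjusted by Benjamini-Hochberg over all tested genes. Among called genes the rises were steeper than the falls. The median fold was 1.45 among risers and 1.28 among fallers, and 201 rises but 53 falls reached 2-fold. Expression level was not held equal in this comparison, and fallers were more often abundant. The median log2 fold change over all tested genes was 0.0035. Falls were concentrated in abundant transcripts. Among 25% of the genes with the highest level, 10.2% were called higher and 17.6% lower, against 10.8% and 3.31% among the 25% with the lowest. Among the 874 genes of at least 100 CPM, 86 rose and 215 fell. Every treated library lay above every control library in 471 genes (3.55%) and below in 477 (3.59%), and 452 and 460 of these were called. Without the libraries above 80 CPM of Myl7 there were 756 rises and 613 falls, and with the covariate of Msln and Upk3b there were 494 and 450. Of 121 genes named in the text that passed the test against control, 16 lost the call with that covariate: Acta2, Adrb1, Col1a1, Col3a1, Cyp1a1, Fos, Kit, Mmp2, mt-Nd5, Nos2, Parp1, Pck1, Pecam1, Pkia, Postn and Ptgis.  With the mean of the whole mesothelial and epicardial list as a covariate, a list that holds the risers Krt18 and Aldh1a2, there were 219 rises and 190 falls among all tested genes.

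**Figure D1:**
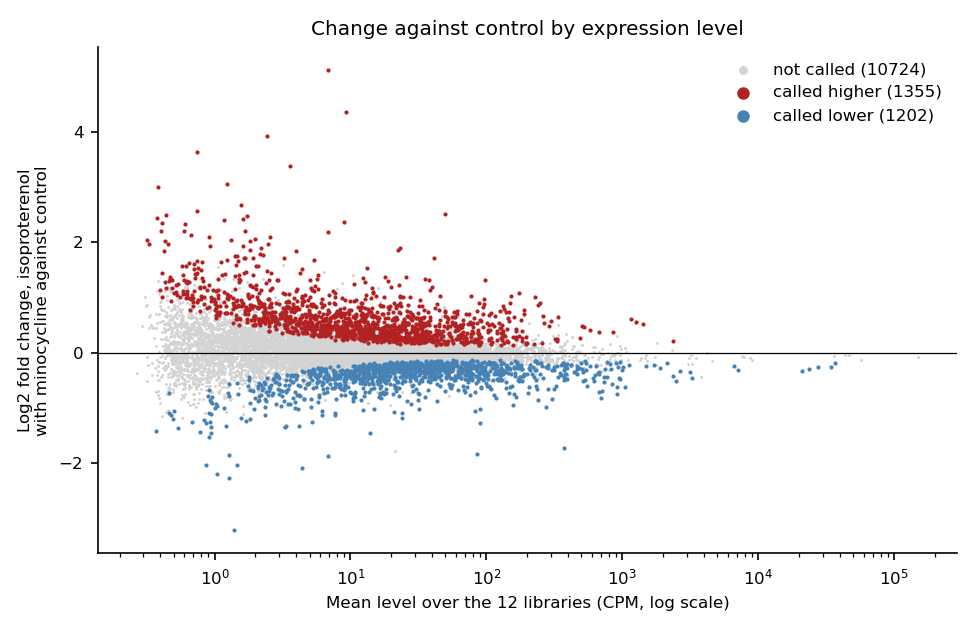
Log2 fold change of isoproterenol with minocycline against control (y axis) plotted against the mean level of each tested gene over the 12 libraries in CPM (x axis, log scale). Each point is 1 of 13281 genes; the 1355 called higher and 1202 called lower are coloured, and the falls are seen to lie further to the right than the rises.

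Expression is given below as the lowest, the median and the highest CPM over the 6 libraries of a group, control first. Fold changes, their standard errors (SE) and adjusted p-values come from the edgeR fit. Fold changes of isoproterenol alone use the same control libraries and are therefore set beside those of the combined treatment as values only. Counts of list members are to be read beside all tested genes, of which 10.2% were called higher and 9.05% lower.

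The steepest rises began from near silence. Snhg11 (ENSMUSG00000044349, chromosome 2, 158375638 to 158386145), a host transcript of small nucleolar RNAs, was at 0.665, 0.832 and 1.06 CPM in control and at 12.9, 16.1 and 26.2 CPM in treated ventricles. The ranges were far apart, and the log2 fold change was 4.36 (SE 0.32, adjusted p = 7.23e-08). Lrrc10b (ENSMUSG00000090291, chromosome 19, 10455371 to 10457447), a leucine-rich repeat gene, went from 0.0504, 0.289 and 0.529 to 3.04, 4.7 and 5.35 CPM, again without overlap, a rise of 3.92 on the log2 scale (SE 0.26, adjusted p = 2.54e-09). Sprr1a, a small proline-rich protein induced in stressed cardiomyocytes, rose 12.5-fold from a control median of 0.0867 CPM. Genes of macrophages stood among the leaders. Clec4d, a C-type lectin receptor of myeloid cells, rose 8.29-fold, Mmp12, the macrophage elastase, 6.38-fold, and Ms4a4a, a membrane protein of alternatively activated macrophages, 4.18-fold. Serpina3n, an acute-phase protease inhibitor, was at 9.9, 12.6 and 28.8 and 54.7, 69.9 and 151 CPM. Its lowest treated library lay above the highest control, and it rose 5.7-fold (SE 0.34 on the log2 scale, adjusted p = 0.000118). Cdo1, the cysteine dioxygenase that opens the path from cysteine to taurine, rose 5.14-fold, and Timp1, an inhibitor of matrix metalloproteinases, 4.53-fold. Krt18, an intermediate filament keratin that also stands in the mesothelial list, rose 5.55-fold. Pck1, a gluconeogenic enzyme of liver and fat, rose 5.28-fold, but its call was lost in 12 of the 25 alternatives, among them the adipocyte marker mean as a covariate and those without Control 1, 3, 4 or 6 or without Treated 2 or 4.

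The steepest falls were also of scarce transcripts, with exceptions in muscle genes. Scgb1c1 (ENSMUSG00000038801, chromosome 7, 140845547 to 140846769), a small secreted protein of the secretoglobin family, was at 5.39, 7.38 and 8.55 CPM in control and at 1.55, 1.65 and 1.79 CPM in treated ventricles. The treated libraries were confined to a band of 1.55 to 1.79 CPM below all controls, and the gene fell by 2.08 on the log2 scale (SE 0.13, adjusted p = 1.74e-09). Cngb3, a subunit of a cyclic nucleotide-gated channel known from cone photoreceptors, fell 9.32-fold, and Gnb3, a G protein β subunit, fell 3.68-fold from a median of 10.6 to 2.85 CPM. Mylk4, a kinase of the myosin light chain kinase family found in heart, was far more abundant. Its level was 102, 133 and 158 CPM in control and 21.9, 40.2 and 52.1 CPM in treated ventricles, a fall of 1.84 on the log2 scale (SE 0.19, adjusted p = 5.6e-06) with no overlap. Acta1, the skeletal muscle α-actin that adult ventricle expresses at a variable level, was at 245, 482 and 1228 and 64.5, 133 and 370.4 CPM. These ranges overlapped, with a wide spread within control, and the fall of 1.72 on the log2 scale (SE 0.44, adjusted p = 0.0132) was lost without the libraries above 80 CPM of Myl7. Cyp1a1, a monooxygenase induced through the aryl hydrocarbon receptor, fell 3.64-fold, a call lost without Control 3 or without both Treated 4 and 6.

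**Figure D2:**
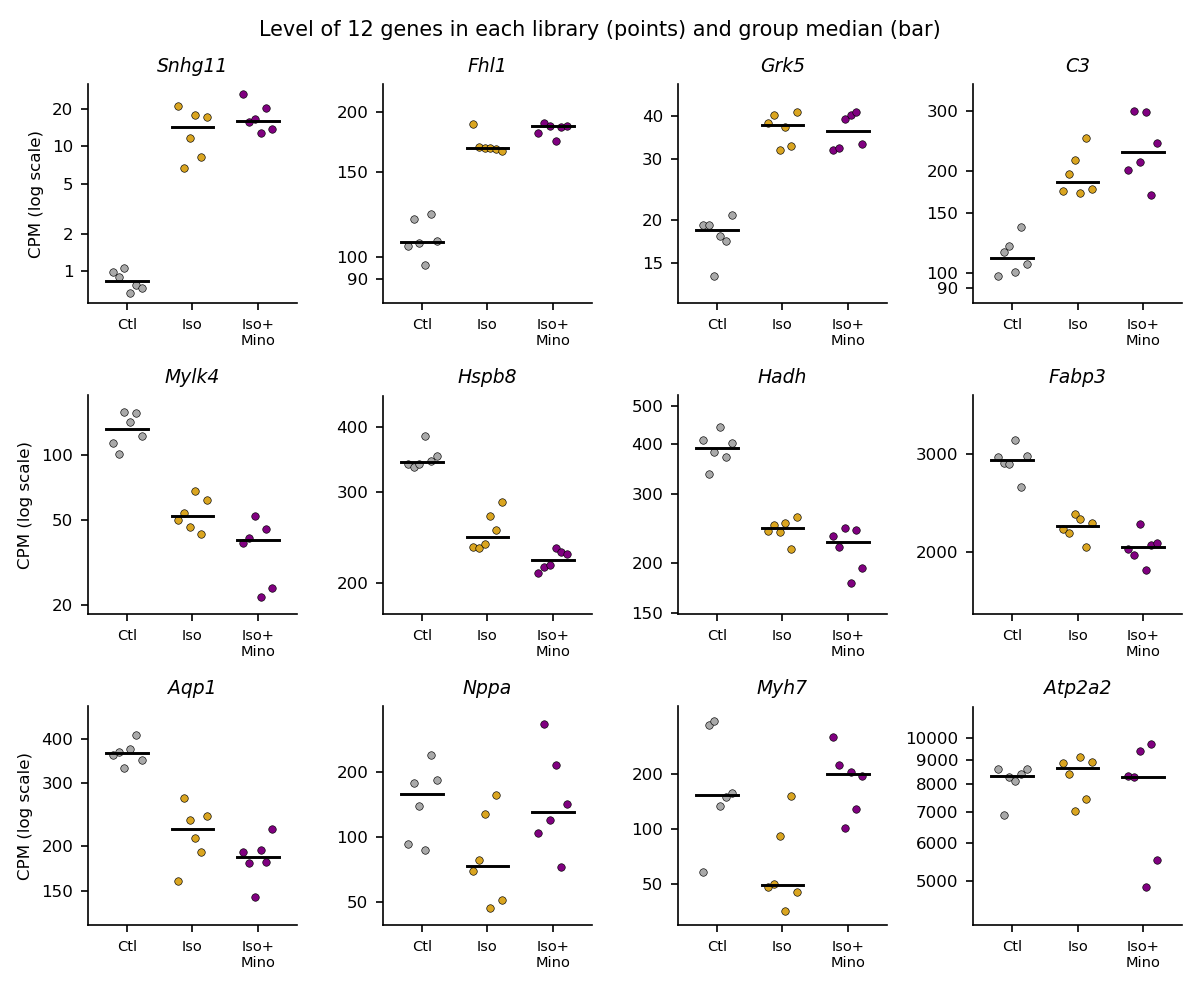
CPM on a log axis in each of the 18 libraries for 12 genes; columns are control, isoproterenol, and isoproterenol with minocycline, each point is 1 library and the bar is the group median. Snhg11, Fhl1, Grk5 and C3 in treated libraries lie above every control library, and Mylk4, Hspb8, Hadh, Fabp3 and Aqp1 lie below, while Nppa, Myh7 and Atp2a2 overlap.

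The contractile apparatus was lower, most of all the thick filament. Of 18 tested genes of the thick filament and M-band, which hold myosin in register, 12 fell and 0 rose (median log2 fold change -0.32), against 9.05% falling among all tested genes. Myom2, an M-band crosslinker, was at 784, 874 and 1039 CPM in control and at 407, 523 and 584 CPM in treated ventricles. The ranges were separate, and it fell by 0.83 on the log2 scale (SE 0.10, adjusted p = 2.02e-05). Myl3, a ventricular essential light chain, fell 1.38-fold from 3518, 3823 and 3916 to 2502, 2662 and 3102 CPM, and Myh7b, a slow-type myosin whose annotation overlaps Trpc4ap, fell 1.77-fold. Myh6, the main motor, was at 28252, 29868 and 32271 and 21772, 24894 and 28288 CPM. The top of the treated range met the bottom of the control range, and the fall was 1.2-fold (adjusted p = 0.00426), a call lost without the libraries above 80 CPM of Myl7. Thin filament genes, which carry the actin and troponin side, fell in 6 of 17 and rose in 2. Tpm1, tropomyosin, fell 1.18-fold, whereas the riser Acta2 encodes the actin of smooth muscle and myofibroblasts (1.76-fold). At the Z-disc and costamere, where filaments are anchored to the membrane, 10 of 29 fell and 3 rose. Myoz2, which tethers calcineurin to the Z-disc, went from 673, 729 and 777 to 474, 496 and 612 CPM, and Sgca, a sarcoglycan of the dystrophin complex, fell 1.26-fold. Fhl1 (ENSMUSG00000023092, chromosome X, 56731787 to 56793346), a LIM-domain protein on the titin spring, went the other way. It was at 96.3, 107 and 123 CPM in control and at 174, 186 and 189.6 CPM in treated ventricles, a rise of 0.74 on the log2 scale (SE 0.057, adjusted p = 2.8e-08), the smallest p among the abundant risers. Without the Myl7-high libraries, 9 thick filament, 2 thin filament and 3 Z-disc genes were lower, and 0, 1 and 4 were higher. The Z-disc list thus had more rises than falls in that setting. With the covariate of Msln and Upk3b 9, 4 and 5 were lower and 0, 0 and 2 higher. With the atrial marker mean 12, 6 and 10 were lower and 0, 2 and 3 higher. The Z-disc falls also numbered 5 or 6 without any of Control 3, 4, 5 or 6 or Treated 1 or 2.

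The usual transcripts of ventricular load did not follow as one. Of 22 tested natriuretic peptide and load genes, 8 rose and 4 fell. Nppa, atrial natriuretic peptide, was at 87.1, 158 and 240.0 CPM in control and at 72.9, 131 and 335 CPM in treated ventricles (log2 fold change 0.11, SE 0.39, adjusted p = 0.88). Nppb, the brain type, was at 85.3, 131 and 269 and 70.3, 145 and 309.8 CPM (log2 change of 0.078, SE 0.32, adjusted p = 0.893). The groups overlapped broadly in both, and neither passed the test. Myh7, the β-myosin heavy chain of the fetal rodent ventricle, whose annotation overlaps the noncoding Mhrt, was at 58.7, 154 and 392 and 102, 200.3 and 321 CPM (log2 change of -0.10, SE 0.46, adjusted p = 0.902). The signs of these 3 values changed in some alternatives. With isoproterenol alone the corresponding log2 fold changes were -0.80, -0.71 and -1.58. The difference between the infused groups did not pass the test for any of the 3 (adjusted p = 0.615, 0.593 and 0.469). Uchl1, a deubiquitinase of nerve and stressed muscle, rose 2-fold, and Mt1, a metal-binding metallothionein, rose 1.86-fold from 81.6, 99.3 and 131 to 175, 183 and 241 CPM, without overlap. The load list had 5 rises with the covariate of Msln and Upk3b and 5 rises and 2 falls without the Myl7-high libraries.

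Mitochondrial fatty acid oxidation, the chain that shortens fatty acids to acetyl-CoA, was the list with the largest share of falling members. Of 28 tested genes 22 fell and 0 rose, with a median log2 fold change of -0.41. Hadh (ENSMUSG00000027984, chromosome 3, 131233419 to 131272101), the short-chain hydroxyacyl-CoA dehydrogenase, was at 336, 392 and 443 CPM in control and at 178, 226 and 246 CPM in treated ventricles. All treated libraries lay below all controls, and the fall was 0.83 on the log2 scale (SE 0.079, adjusted p = 3.87e-07). Decr1 and Eci1, which prepare unsaturated fatty acids for the cycle, fell 1.58-fold and 1.54-fold. Cpt2, the inner-membrane carnitine palmitoyltransferase, went from 155, 166 and 198 to 92.4, 108 and 129 CPM, again with separate ranges. Upstream of the mitochondrion, 10 of 28 genes of fatty acid uptake and triglyceride handling fell and 3 rose. Fabp3, the heart fatty acid binding protein, was at 2614, 2919.8 and 3178 CPM in control and at 1856, 2041 and 2247 CPM in treated ventricles, a fall of 0.52 on the log2 scale (SE 0.055, adjusted p = 2.05e-06). Dgat2, which completes triglyceride synthesis, fell 1.67-fold, Pnpla2, the lipase that begins its breakdown, fell 1.37-fold, and Plin3, a lipid droplet coat protein, fell 1.53-fold. With the covariate of Msln and Upk3b 15 of the oxidation genes and 6 of the uptake and triglyceride genes were lower, and without Treated 4 and 6 there were 22 of the former.

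Other oxidative pathways moved the same way by smaller amounts. In the branched-chain amino acid and ketone list 16 of 24 fell and 2 rose (median log2 fold change -0.30). Pccb, a subunit of propionyl-CoA carboxylase, fell 1.38-fold, Acat1, the acetoacetyl-CoA thiolase, fell 1.39-fold, and Bckdha, of the branched-chain keto acid dehydrogenase, fell 1.36-fold, each with separate ranges. The 16 falls became 10 without the Myl7-high libraries and 8 with the covariate of Msln and Upk3b. TCA cycle genes fell in 10 of 21 and rose in 0. Cs, citrate synthase, which opens the cycle, was at 941, 1142 and 1195 and 600.5, 829 and 953 CPM, the highest treated library lying just above the lowest control, and fell 1.39-fold (adjusted p = 0.000949). Of the respiratory chain, 10 of 37 nuclear complex I genes (27%) and 7 of 38 genes of complexes III to V (18.4%) fell. Falls were frequent among abundant genes of any kind. They made up 17.6% of the 3321 tested genes from 29.6 CPM upward, and 215 of the 874 genes of at least 100 CPM. Whether either respiratory chain list fell more often than genes of like level was not tested. The complex I subunit Ndufa3 fell 1.32-fold. Of 13 tested mitochondrially encoded genes 5 fell, by 1.25-fold in mt-Nd5, the one with the smallest p. These counts were not stable: without the libraries above 80 CPM of Myl7 they were 4 TCA cycle, 2 complex I, 3 complex III to V and 1 mitochondrially encoded genes, and with the covariate of Msln and Upk3b they were 3, 1, 0 and 0. Single libraries also counted: without Control 4 there were 6 TCA cycle, 5 complex I and 2 mitochondrially encoded genes, without Control 3 there were 6 and 2 of the latter pair, without Treated 2 there were 4 complex I, 4 complex III to V and 1 mitochondrially encoded gene, and without Control 1 there were 4 complex I genes and without Treated 6 there were 2 mitochondrially encoded ones. Pathways of glucose use were mixed, with 6 of 38 rising (15.8%) and 10 falling (26.3%). Ldha, the lactate dehydrogenase subunit that favours lactate formation, was at 388, 419 and 482 CPM in control and at 558, 596 and 614 CPM in treated ventricles, a rise of 0.47 (log2, SE 0.053, adjusted p = 3.79e-06). Hk1, a hexokinase that traps glucose, rose 1.35-fold, and Slc16a3, a lactate exporter, rose 2.12-fold. Pdk2, a kinase that holds pyruvate dehydrogenase inactive, fell 1.25-fold. The falls in the glucose list were 4 without the Myl7-high libraries and 2 with the covariate of Msln and Upk3b.

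**Figure D3:**
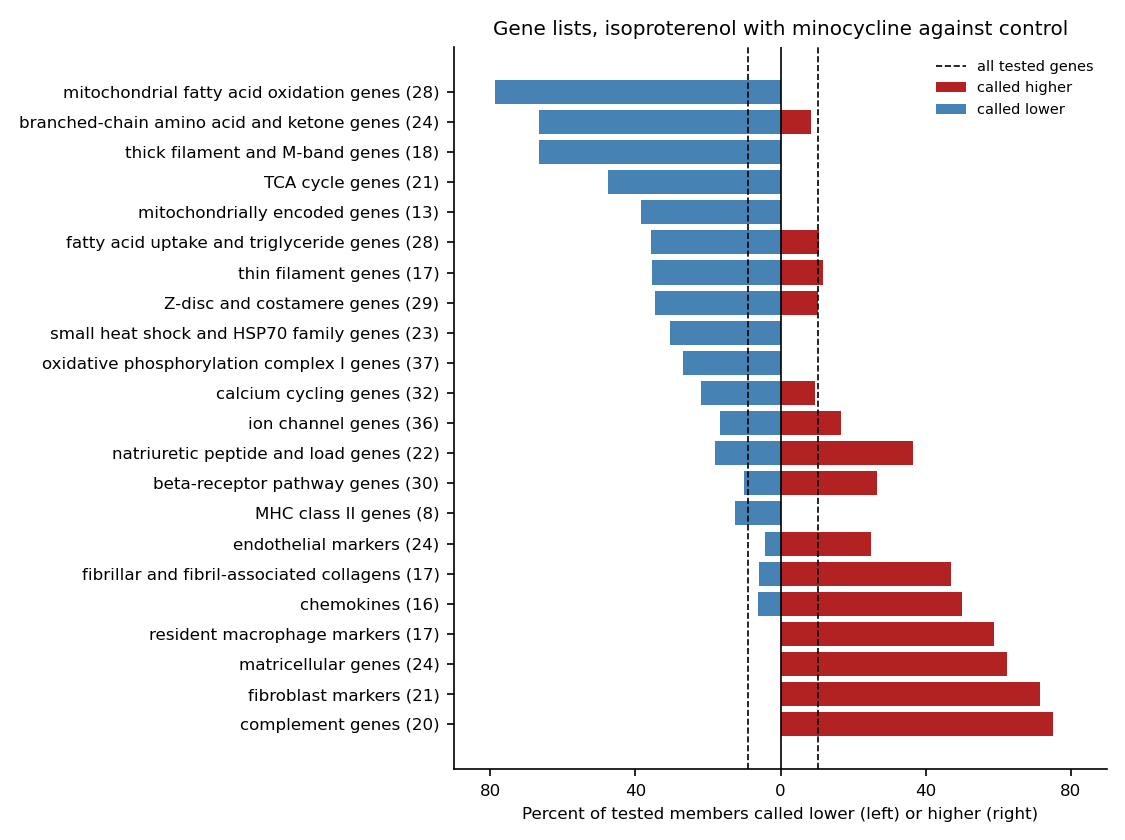
Percent of tested members called higher (right) and lower (left) in isoproterenol with minocycline against control, for 22 gene lists; numbers in brackets are tested members, and the dashed lines mark 10.2% higher and 9.05% lower among all 13281 tested genes. Fatty acid oxidation genes extend furthest to the left and complement genes furthest to the right.

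In the β-adrenergic pathway both named receptor kinases rose and the main receptor fell. Of 30 tested receptors, G proteins, cyclases and desensitisation genes 8 rose (26.7%) and 3 fell (10%). Grk5 (ENSMUSG00000003228, chromosome 19, 60889749 to 61092553), a kinase that uncouples β-receptors and whose annotation overlaps Zfp950, was at 13.8, 18.7 and 20.7 CPM in control and at 31.9, 36.2 and 41 CPM in treated ventricles. Every treated library exceeded every control, and the rise was 2-fold (SE 0.10 on the log2 scale, adjusted p = 4.13e-07). Adrbk2, the related kinase GRK3, rose 1.36-fold. Gnai2, which codes for an inhibitory G protein subunit, rose 1.2-fold. Adrb1, the main receptor of cardiomyocytes, was at 5.17, 5.87 and 6.7 and 2.04, 4.26 and 5.31 CPM, with overlap, and fell 1.48-fold (adjusted p = 0.0346). That call was lost in 10 of 25 alternatives, including those without Control 4, 5 or 6 or without Treated 4 or 6. Downstream, among phosphodiesterases, kinase A subunits and anchors, 2 of 31 rose (6.45%) and 5 fell (16.1%), against 10.2% and 9.05% of all tested genes. Pde1a, a calcium-stimulated phosphodiesterase, rose 1.86-fold from 4.31, 5.42 and 6.11 to 8.02, 9.95 and 12.9 CPM, while Pkia, an inhibitor of kinase A, fell 1.42-fold. The falls of the receptor list went from 3 to 0 without any of Control 4, 5 or 6 or Treated 4 or 6, and those of the phosphodiesterase list from 5 to 3 without Control 4 or Treated 2 or 4. With the covariate of Msln and Upk3b the receptor list had 5 rises and 0 falls and the phosphodiesterase list 1 fall, and without the Myl7-high libraries the falls were 0 and 2.

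Calcium cycling genes fell more often than they rose, and ion channel genes moved equally often each way. Calcium cycling genes fell in 7 of 32 (21.9%) and rose in 3 (9.38%), against 9.05% and 10.2% of all tested genes. Among the 874 genes of at least 100 CPM, 215 fell and 86 rose. Whether the list fell more often than genes of like level was not tested. Hrc, a calcium-binding protein inside the sarcoplasmic reticulum, was at 948, 1001 and 1029.8 CPM in control and at 576, 638 and 839 CPM in treated ventricles, without overlap (log2 fold change -0.57, SE 0.079, adjusted p = 4.56e-05). S100a1, which supports calcium release and uptake, fell 1.22-fold, and Calm2, 1 of the calmodulin genes, rose 1.44-fold. Atp2a2, the pump that refills the store, was at 6868, 8323 and 8592 and 4846, 8289.5 and 9708 CPM (log2 change of -0.084, SE 0.14, adjusted p = 0.707). The treated group was split here: Treated 4 and 6 were at 4846 and 5524 CPM and the other 4 at 8272 to 9708 CPM. Among 36 ion channel genes 6 rose (16.7%, 3 genes without Control 4) and 6 fell (16.7%). Cacna2d1, the auxiliary subunit of the L-type calcium channel, fell 1.64-fold from 92, 102 and 114 to 47, 61.9 and 75.1 CPM. Scn4b, a sodium channel β subunit, went from 20.7, 29.6 and 34 to 8.64, 13.8 and 18.3 CPM without overlap (adjusted p = 0.000756). Hcn2, a pacemaker channel, went from 8.42, 11.7 and 13.1 to 5.46, 6.37 and 8.36 CPM, also without overlap (adjusted p = 0.000139). With isoproterenol alone their log2 fold changes were -0.35 and -0.23, against -1.08 and -0.76 here, and the difference between the infused groups did not pass the test (adjusted p = 0.328 and 0.141). Scn10a, a sodium channel best known from sensory neurons, rose 3.27-fold from a median of 0.764 CPM. With the covariate of Msln and Upk3b the channel list had 2 rises and 5 falls.

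Genes of the interstitial matrix were higher. Of the basement membrane genes 3 of 21 rose (14.3%) and 1 fell (4.76%), against 10.2% and 9.05% of all tested genes. Those rises numbered 0 or 1 without any of Control 3, 4 or 6 or Treated 4 or 6. Of the fibrillar and fibril-associated collagens, which give scar its strength, 8 of 17 rose and 1 fell (median log2 fold change 0.66). The fall was lost when any single library other than Treated 2 or 6 was left out. Col14a1, which binds the fibril surface, was at 7.6, 9.02 and 11.3 CPM in control and at 13.7, 20.4 and 27.4 CPM in treated ventricles, a rise of 1.07 on the log2 scale (SE 0.15, adjusted p = 8.48e-05) without overlap. The main collagens moved less evenly. Col1a1 was at 43, 58.7 and 68.2 and 59.2, 85.2 and 136 CPM (adjusted p = 0.0131), and Col3a1 was at 82.6, 91.6 and 137 and 105, 159 and 261 CPM (adjusted p = 0.0121). The groups overlapped in both. Both calls were lost without Treated 4 and 6, and also when the libraries above 80 CPM of Myl7 were left out. Matricellular genes, secreted regulators of cell and matrix contact, rose in 15 of 24. Tnc, tenascin-C, was at 1.1, 1.65 and 2.45 and 3.62, 5.19 and 9.99 CPM, with separate ranges (3.58-fold, adjusted p = 0.000108). Postn, periostin of activated fibroblasts, rose 2.5-fold, a call lost under the same 2 conditions as the collagens. Elastic fibre genes rose in 10 of 17, with the smallest p in Emilin2 (1.75-fold). Crosslinking and processing genes rose in 10 of 21 (6 without Control 3), among them Adamts2, which trims procollagen (1.79-fold).

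Enzymes and cells that make or remodel the matrix followed. Of 14 tested metalloproteinases and their inhibitors 9 rose and 0 fell. Timp1 was at 1.14, 2.34 and 4.44 CPM in control and at 6.16, 11.3 and 17.2 CPM in treated ventricles, all above all controls (log2 fold change 2.18, SE 0.30, adjusted p = 7.8e-05). Mmp3, stromelysin, rose 2.38-fold and Mmp2, a gelatinase, 1.47-fold, the latter without a call when Treated 4 and 6 were left out. Mmp9, the other gelatinase, was too scarce to test, at 0.365, 0.478 and 0.796 and 0.051, 0.205 and 0.71 CPM. Fibroblast markers rose in 15 of 21, with Medag at 1.66-fold and Gsn, the actin-severing gelsolin that fibroblasts express strongly, at 1.52-fold. Ligands, receptors and latency proteins of TGF-β, a main driver of fibroblast activation, rose in 12 of 21, such as the coreceptor Eng (1.51-fold). The secreted Wnt antagonists Sfrp1 and Sfrp2 rose 1.82-fold and 2.73-fold. Markers of mesothelium moved with these genes, and their part in the rises was not tested. With the covariate of Msln and Upk3b, 2 collagen, 6 matricellular, 4 metalloproteinase and inhibitor, and 4 fibroblast genes were called higher, and without the libraries above 80 CPM of Myl7 the counts were 4, 6, 8 and 10. With the mesothelial list mean they were 1, 1, 2 and 0. With the atrial marker mean they were 7, 15, 9 and 15. The counts of elastic fibre, crosslinking and TGF-β genes were 4, 4 and 5 with the covariate of Msln and Upk3b, 6, 6 and 8 without the Myl7-high libraries, and 1, 0 and 0 with the mesothelial list mean.

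Macrophage genes rose in both the resident and the recruited list. Resident macrophage markers rose in 10 of 17 (6 without Treated 4). Mrc1, the mannose receptor, was at 16.3, 19 and 22.7 CPM in control and at 30.1, 34.4 and 38.1 CPM in treated ventricles, with separate ranges (log2 fold change 0.86, SE 0.10, adjusted p = 9.36e-06), and Adgre1, the F4/80 antigen, rose 1.5-fold. Markers of recruited and lipid-associated macrophages rose in 11 of 20. Lgals3, the lectin galectin-3, went from 2.04, 2.35 and 3.51 to 5.47, 8.5 and 10.4 CPM, a rise of 1.68 on the log2 scale (SE 0.19, adjusted p = 3.96e-06). Of 6 tested mast cell markers 4 rose and 1 fell. The proteases Tpsb2 and Cma1 rose 2.61-fold and 2.65-fold from medians under 1 CPM, and Kit, the stem cell factor receptor, fell 1.56-fold from 2.37, 3.15 and 4.13 to 1.67, 1.92 and 2.46 CPM, with overlap. The call of Kit was lost in 6 of 25 alternatives, among them those without Control 2 or Treated 2. Lymphoid signal was slight: 3 of 18 T, B and NK cell markers could be tested, and Ighm, the immunoglobulin μ chain, fell 1.91-fold from 3.81, 4.54 and 5.6 to 1.38, 2.52 and 3.36 CPM. Of 3 tested neutrophil markers 0 were called by edgeR, DESeq2 or limma-voom, and 0 had an unadjusted p under 0.05. Without the libraries above 80 CPM of Myl7, 6 resident and 6 recruited macrophage genes were called higher, with the covariate of Msln and Upk3b 4 and 5, and with the mesothelial list mean 2 and 1. Mesothelial markers moved with these genes too, and their part was not tested.

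Complement was the immune list with the largest share of risers. Of 20 tested complement genes 15 rose and 0 fell (median log2 fold change 0.65), and the list mean of each treated library lay above that of each control. C3, the hub of the cascade, was at 97.8, 111 and 136 CPM in control and at 169.5, 228 and 299.6 CPM in treated ventricles, with separate ranges (log2 fold change 1.07, SE 0.13, adjusted p = 2.18e-05). Serping1, the inhibitor of the C1 proteases, rose 1.8-fold and its target C1s1 1.55-fold. Chemokines rose in 8 of 16 and fell in 1. Ccl2, which draws monocytes, rose 2.5-fold and Ccl9 1.92-fold. The member that fell was Cxcl9, an interferon-γ-induced attractant of T cells, at 2.21, 3.38 and 4.39 CPM in control and at 1.04, 1.52 and 1.79 CPM in treated ventricles, without overlap (log2 fold change -1.14, SE 0.19, adjusted p = 0.000283). With isoproterenol alone its log2 fold change was -0.22, and the difference between the infused groups missed the threshold (adjusted p = 0.0878). Among cytokine signalling genes 8 of 29 rose and 0 fell. They included parts of the gp130 route: the receptor Osmr (1.66-fold), the transcription factor Stat3 (1.33-fold) and the feedback inhibitor Socs3, at 2.83, 3.25 and 4.12 and 5.51, 7.23 and 10.2 CPM (2.31-fold, adjusted p = 3.82e-05). The cytokines Il6, Il1b and Tnf were too scarce to test, with a highest single value of 0.615 CPM, for Il1b. Interferon-stimulated genes rose in 11 of 40 and fell in 2, with Lgals3bp at 1.8-fold. With the covariate of Msln and Upk3b the risers numbered 6 for complement, 7 for chemokines, 5 for cytokine signalling and 5 for interferon-stimulated genes, and with the mesothelial list mean 1, 2, 3 and 2.

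Antigen presentation by MHC class II did not rise with the macrophage genes. Of 8 tested members 1 fell and 0 rose, and all 8 had negative log2 fold changes (median -0.26). H2-Aa, a class II α chain, was at 25.6, 30.1 and 33.3 CPM in control and at 18.6, 20.3 and 25.6 CPM in treated ventricles, the ranges touching at 1 value, and fell 1.36-fold (adjusted p = 0.019). The partner chain H2-Ab1 missed the threshold (log2 fold change -0.33, adjusted p = 0.0612). With isoproterenol alone the log2 fold changes of the pair were 0.29 and 0.38, and the difference between the infused groups passed the test for both (log2 -0.74, adjusted p = 0.0309, and -0.71, adjusted p = 0.0302). Both of these calls held in 6 of 15 alternatives, and were lost without Treated 1, 3, 4 or 5, without Isoproterenol 3, 4, 5 or 6, and without the libraries above 80 CPM of Myl7. Class I and immunoproteasome genes were not called in either direction, 0 of 17 (edgeR, with 2 at an unadjusted p under 0.05, 0 called by DESeq2 or limma-voom, and the median log2 fold change at 0.073).

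Immediate early genes, which code for quickly induced transcription factors, rose in 5 of 25 (20%), and 0 fell. Among all tested genes 10.2% rose and 9.05% fell. Junb, a subunit of the AP-1 factor whose annotation overlaps Prdx2, was at 8.41, 14.5 and 17.9 CPM in control and at 24.9, 29.6 and 42.7 CPM in treated ventricles, with separate ranges (log2 fold change 1.22, SE 0.19, adjusted p = 0.000189). Fos, its partner, was at 4.51, 5.74 and 13.5 and 9, 18.5 and 37.3 CPM, overlapping, and rose 2.91-fold (adjusted p = 0.0159), a call lost with the adipocyte marker mean as a covariate. The rises of this list numbered 2 with the covariate of Msln and Upk3b. The letters of the AP-1 site, TGANTCA on either strand, were counted in RefSeq promoter windows of GRCm38.p6 from 250 bases before to 50 after a start. Windows were found for 10059 of the 13281 tested genes. The site was present in 8.24% of 1335 windows of rising genes, in 4.65% of 1161 windows of falling genes and in 4.81% of 10414 windows of genes not called, against 7.81% of all 32851 windows. The TATA box, TATAAA on either strand, was present in 9.66%, 8.53% and 6.83% in the same order. The cAMP response element TGACGTCA was present in 2.55%, 1.89% and 3.08%. The ETS site CCGGAAG, on either strand and not overlapping the AP-1 letters, was present in 9.21%, 16.2% and 17.2%. These shares are a description without a test, and the mean GC content of the windows was 59.6%, 60.6% and 60.7%. Upstream stretches of 4 rising genes named here that hold the AP-1 letters are shown, with those letters in capitals. Stretches were sought among rising genes only and these 4 were selected from them. Whether AP-1 acts on these genes was not tested. They are written 5′ to 3′ on the strand of the gene. Mmp12 and Mmp3 cleave matrix, Sprr1a is the stress gene described above, and Fgl2 is a secreted fibrinogen-like protein that rose 1.94-fold from 18.6, 21.5 and 27.1 to 38.4, 41.3 and 52.5 CPM.
Mmp12 (chr9:7347303-7347363, plus strand): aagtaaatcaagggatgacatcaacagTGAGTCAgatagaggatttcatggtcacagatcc
Mmp3 (chr9:7445749-7445809, plus strand): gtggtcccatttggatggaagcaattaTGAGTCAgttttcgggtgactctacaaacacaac
Sprr1a (chr3:92485994-92486054, minus strand): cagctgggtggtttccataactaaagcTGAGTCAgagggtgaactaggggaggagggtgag
Fgl2 (chr5:21372630-21372672, plus strand): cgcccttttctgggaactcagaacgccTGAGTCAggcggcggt
The site begins 44 bases before the RefSeq start in Mmp12, 46 in Mmp3, 146 in Sprr1a and 16 in Fgl2. Sprr1a holds the letters a second time, 116 bases before the start. The deposited counts place Mmp12 at 7344381 to 7369499, so its stretch lies inside the gene as counted there. A match of letters is not a bound site.

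Stress and defence genes were split. Small heat shock and HSP70 family genes, chaperones that hold muscle proteins in shape, fell in 7 of 23 and rose in 0. Hspb8 (ENSMUSG00000041548, chromosome 5, 116408491 to 116422864), which works with BAG3 in filament quality control, was at 335, 342 and 384 CPM in control and at 209, 222 and 234 CPM in treated ventricles. The treated values spanned a narrow band far below the controls, and the fall was 0.66 on the log2 scale (SE 0.058, adjusted p = 1.29e-07). Hspb6, a small heat shock protein phosphorylated by kinase A, fell 1.44-fold. Antioxidant and NRF2 genes rose in 10 of 37 and fell in 3, a number of falls that was 1 without Control 3 or 4 and 5 or 6 without Control 2 or Treated 1, 3 or 5. Gpx1, the main cytosolic glutathione peroxidase, was at 42, 44.8 and 48.9 and 63.1, 69.9 and 79 CPM, with separate ranges (1.57-fold, adjusted p = 4.07e-06), and the secreted Gpx3 rose 1.88-fold. Mgst3, a microsomal glutathione transferase of mitochondria-rich tissue, fell 1.3-fold. Of the integrated and mitochondrial stress response genes 6 of 35 rose (17.1%) and 6 fell (17.1%), the mitochondrial chaperone Hspd1 by 1.55-fold, with the limit that it overlaps Hspe1. Genes of cell death, autophagy and atrophy rose in 7 of 36 (19.4%) and fell in 3 (8.33%, 1 gene without Control 3 or 4 or Treated 4). Bnip3, a mitophagy receptor, rose 1.37-fold. With the covariate of Msln and Upk3b the falls were 4 for heat shock and 1 for stress response genes, and without the Myl7-high libraries 3 and 4. The rises of stress response and cell death genes were 3 and 4 with that covariate.

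Vessel genes gave single strong changes within mixed lists. Endothelial markers rose in 6 of 24 (25%) and fell in 1 (4.17%), against 10.2% and 9.05% of all tested genes. The fall was Aqp1, a water channel of the microvascular endothelium, at 332, 364 and 410.2 CPM in control and at 144, 186 and 223 CPM in treated ventricles, without overlap (log2 fold change -0.98, SE 0.11, adjusted p = 3.92e-06). Pecam1, a general endothelial adhesion protein, rose 1.31-fold and Ly6a, the Sca-1 antigen, 1.62-fold. Among vasoactive peptide genes 5 of 20 rose (25%, 2 or 3 genes without Control 3 or 4 or Treated 4 or 6) and 3 fell (15%). Edn1, endothelin-1, a constrictor peptide, rose 2.51-fold from 1.41, 3.24 and 4.63 to 6.48, 7.95 and 10.4 CPM, whereas Edn3, a related peptide, fell 4.11-fold and Ramp1, part of the receptor for the dilator CGRP, fell 2.52-fold. Smooth muscle and pericyte markers rose in 7 of 17, 1 with the covariate of Msln and Upk3b, 4 without Control 3 or 6 or Treated 4, and 11 without Control 2. Fgf1, a growth factor abundant in cardiomyocytes whose annotation overlaps Arhgap26, fell 1.7-fold. Endothelial and vasoactive rises numbered 2 and 2 with the covariate of Msln and Upk3b.

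Cell cycle, ribosome and clock lists had few called members. Cell cycle genes rose in 3 of 39 (7.69%, 0 or 1 without Control 1, 4 or 6 or Treated 2 or 3) and fell in 1 (2.56%). Among all tested genes 10.2% rose and 9.05% fell. The median log2 fold change of the list was -0.0071, and 0.41 for isoproterenol alone, but 0 of its members were called between the infused groups. Cytosolic ribosomal protein genes rose in 4 of 78, a number that ranged from 0 to 7 as single libraries were left out (0 without Treated 4, 7 without Treated 5) and was 0 with the covariate of Msln and Upk3b. Mitochondrial ribosome and translation genes, a class of interest because tetracyclines bind bacterial-type ribosomes, fell in 12 of 88 and rose in 4, against 9.05% and 10.2% of all tested genes. The falls among them numbered 6 without Control 4 or Treated 6, 7 without Treated 4, 1 without Treated 4 and 6 together and 0 with the covariate of Msln and Upk3b. Circadian clock genes moved in 1 case up and 1 down of 19. Of 9 tested genes that the literature links to minocycline, 3 rose (33.3%, 1 gene without Control 3 or 4 or Treated 4) and 3 fell (33.3%). With the covariate of Msln and Upk3b these numbers were 0 and 1. Rises and falls were equally many, so the list had no common direction. The falls included Parp1, a DNA damage sensor (1.28-fold), Alox5, the 5-lipoxygenase (1.38-fold), and Nos2, the inducible nitric oxide synthase (1.55-fold, a call lost without the libraries above 80 CPM of Myl7).

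Between the 2 infused groups 7 genes of 13281 (0.0527%) passed the test in edgeR, 37 in DESeq2, and 1007 had an unadjusted p under 0.05 in edgeR. That number depended on single libraries: it was 1 without Treated 1, without Treated 4 or without Isoproterenol 6, 2 without Treated 5, 3 without Isoproterenol 3 or 4, 4 without Isoproterenol 5, 11 without Isoproterenol 2 and 13 without Treated 6. Ptgds (ENSMUSG00000015090, chromosome 2, 25466709 to 25470046), which makes prostaglandin D, was at 267, 327 and 449.7 CPM in control and at 292, 421 and 529 CPM with both drugs, overlapping and not called (adjusted p = 0.108). With isoproterenol alone it was at 130.4, 169 and 197 CPM, and the difference between the infused groups was 1.37 on the log2 scale (SE 0.14, adjusted p = 0.000181). Prnd, encoding the prion-like protein doppel, and 2210407C18Rik were likewise not called against control (adjusted p = 0.0717 and 0.634) and differed between the infused groups by -2.01 and -1.34. The remaining ones, 3425401B19Rik, Camk2b and H2-Aa, were also lower than control with both drugs, and H2-Ab1 had a negative value that missed the threshold. 3425401B19Rik was at 101, 108 and 135 CPM in control and at 49.3, 54.1 and 58.2 CPM with both drugs, without overlap, against 66.4, 71.9 and 78.8 CPM with isoproterenol alone. Its log2 fold change against control was -1.05 (SE 0.07, adjusted p = 2.54e-09) and against isoproterenol alone -0.43 (adjusted p = 0.0221). Camk2b, a CaM kinase II subunit, had a log2 fold change of -0.47 with both drugs and of 0.0046 with isoproterenol alone, and the groups differed by -0.47 (adjusted p = 0.0333). Of the 7 calls, that of Ptgds held in all of the 15 alternatives tried for this difference. That of 3425401B19Rik was lost without Treated 1 or 4 or Isoproterenol 6, and that of 2210407C18Rik in addition without Treated 5. That of Camk2b was lost without Treated 1, 2, 4 or 5 or Isoproterenol 3, 4, 5 or 6, and that of Prnd held in 4 alternatives, among single libraries only without Treated 6 or Isoproterenol 2. All but Ptgds also lost the call without the libraries above 80 CPM of Myl7.

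**Figure D4:**
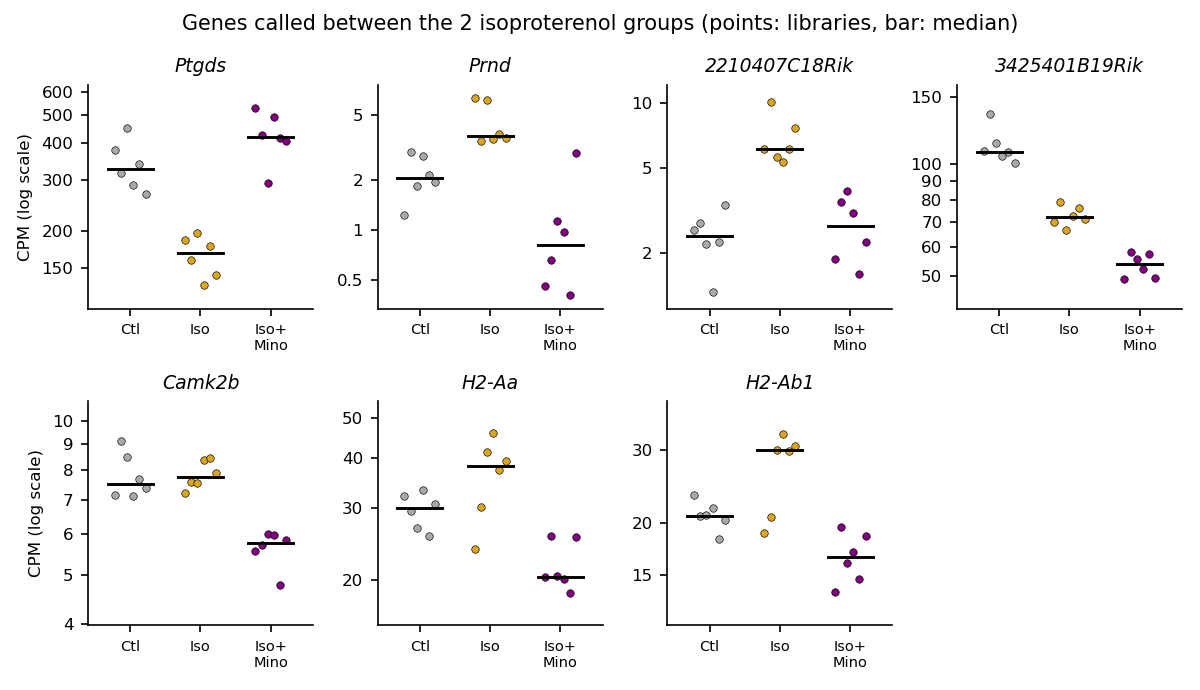
CPM on a log axis in each library for the 7 genes that differed between isoproterenol alone and isoproterenol with minocycline; each point is 1 library and the bar is the group median. With both drugs Ptgds and 2210407C18Rik overlap the control range, and 3425401B19Rik lies below every control library.

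Treated libraries also differed among themselves. Relative to the mean of the controls, the mean log2 level of the fibrillar collagen list was 0.75 and 0.78 in Treated 4 and 6 and 0.55 in Treated 2. It was 0.07, 0.05 and -0.01 in Treated 1, 3 and 5, within the control range of -0.32 to 0.24. Complement was likewise higher in Treated 2, 4 and 6, at 1.03, 1.1 and 0.83, than in Treated 1, 3 and 5, at 0.55, 0.52 and 0.31, but all of these lay above the control range of -0.43 to 0.3. Fatty acid oxidation was lower in Treated 2, 4 and 6, at -0.47, -0.67 and -0.54, than in Treated 1, 3 and 5, at -0.36, -0.26 and -0.25, and all lay below the control range of -0.14 to 0.12. Mesothelial and epicardial markers were at 1.72, 1.65 and 1.32 in Treated 4, 6 and 2. They were at 1.02, 0.8 and 0.29 in Treated 1, 3 and 5, against a highest control of 0.96, so that Treated 1 was above every control in these markers but not in collagens. Adipocyte markers were highest in Treated 2, at 1.81. How far these markers account for the collagen levels was not tested.

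**Figure D5:**
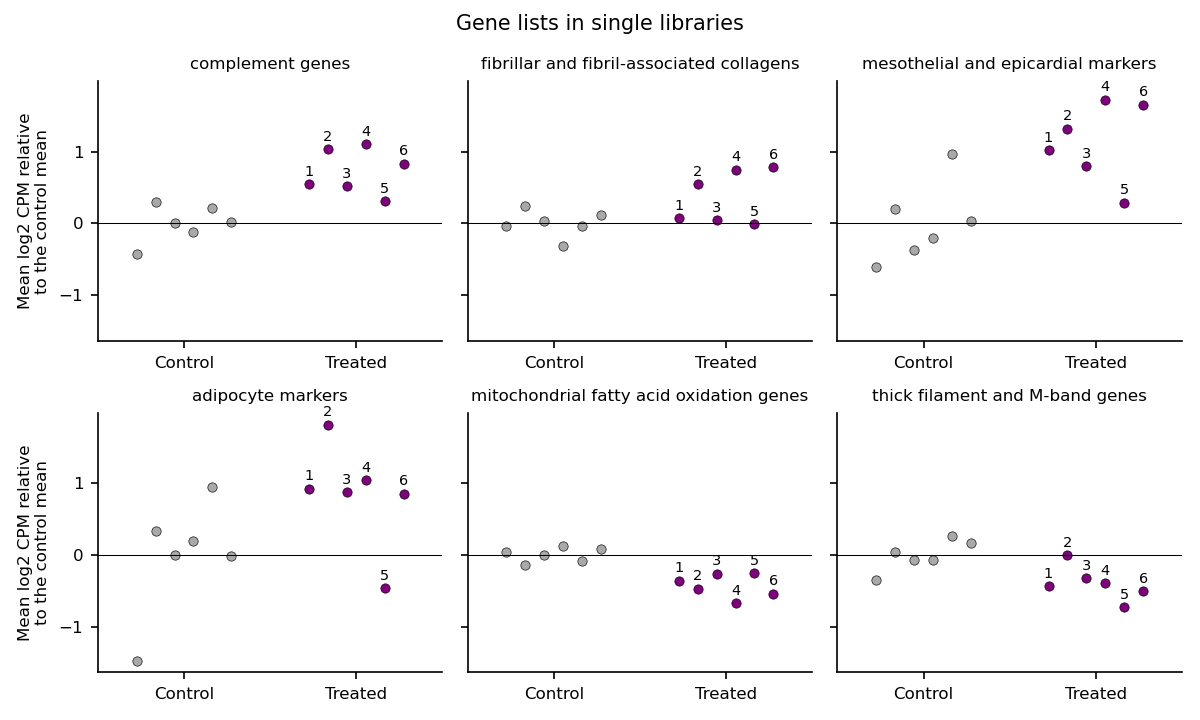
Mean log2 CPM of 6 gene lists in each of the 12 libraries, relative to the mean over the control libraries (y axis); control libraries are grey and treated ones coloured and numbered as in the text. Complement and fatty acid oxidation separate the groups, whereas fibrillar collagens of treated libraries 1, 3 and 5 lie in the control range and mesothelial markers are highest in 4 and 6.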

How the data were processed

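RNA of left ventricles was sequenced as paired reads of 150 bases and trimmed in CLC Genomics Workbench 21.0.3 (quality limit 0.05, at most 2 ambiguous bases), per the labels' protocols. Mapper, genome build, annotation and strand were not given in the sources used here. Raw counts per gene and library are what the authors deposited. Of the identifiers found in GENCODE M21 (GRCm38), 88.4% had the same start and end, and the table's coordinates are printed. All 18 libraries were fitted together with edgeR 4.0.16 in R 4.3.3 (TMM scaling, filterByExpr by group, robust quasi-likelihood) and adjusted by Benjamini-Hochberg over 13281 genes. Replicates of a group differed by more than sampling noise (chi-square per degree of freedom 5.3 to 33.3 over 45 pairs). Alternatives used DESeq2 1.42.0, limma 3.58.1 (voom), other filters and scalings, covariates and libraries left out. The fit was tested on simulated data with known changes. These data gave every gene the same spread and all libraries the same tissue content, so that test does not cover uneven libraries. Genes were named by rule: the 12 largest rises and falls at 1 CPM or more, the 10 abundant risers and fallers (at least 100 CPM) with the smallest p, up to 4 called members per list by p, fixed pathway genes, and genes called between the infused groups. From these the text selects. The members and the 65 lists were chosen with earlier results of these data known. Of 1518 list symbols 1514 matched.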

Additional observations from a re-analysis of the deposited data

Results flagged for a closer look

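A single library lay far from the other 5 of its group in 15 of 260 combinations of a named gene and a group (5.77%), by Dixon's test on the log2 scale, which chance passes in about 1 in 20. In Control 1 this held for Dgat2 (198 CPM, the other 5 at 250.0 to 284 CPM), Gnai2 (175 CPM, the other 5 at 141 to 151 CPM) and Slc16a3 (2.28 CPM, the other 5 at 1.04 to 1.4 CPM). In Control 2 this held for Atp2a2 (6868 CPM, the other 5 at 8137 to 8592 CPM). In Control 3 this held for Serpina3n (28.8 CPM, the other 5 at 9.9 to 14.4 CPM). In Control 4 this held for Hspb8 (384 CPM, the other 5 at 335 to 352 CPM). In Control 5 this held for Hcn2 (8.42 CPM, the other 5 at 11.3 to 13.1 CPM). In Treated 2 this held for Fgl2 (52.5 CPM, the other 5 at 38.4 to 42.4 CPM). In Treated 4 this held for Clec4d (3.37 CPM, the other 5 at 1.78 to 2.18 CPM), Lrrc10b (3.04 CPM, the other 5 at 4.43 to 5.35 CPM), Ly6a (153 CPM, the other 5 at 101 to 115 CPM), Myoz2 (612 CPM, the other 5 at 474 to 516 CPM) and Scn10a (1.14 CPM, the other 5 at 2.32 to 3.34 CPM). In Treated 5 this held for Camk2b (4.78 CPM, the other 5 at 5.56 to 6 CPM). In Treated 6 this held for Myh7b (106 CPM, the other 5 at 75.5 to 83.1 CPM).

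The change from control differed between the infused groups at 7 genes in the edgeR test of the difference itself. The log2 differences, isoproterenol with minocycline minus isoproterenol alone, were positive for Ptgds (1.37) and negative for 3425401B19Rik (-0.43), 2210407C18Rik (-1.34), H2-Ab1 (-0.71), H2-Aa (-0.74), Camk2b (-0.47) and Prnd (-2.01). The values by library and the alternatives in which these calls were lost are given above.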

How the results depend on the processing

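No paired analysis was possible because the groups share no animal or batch numbers in the labels. Leaving out 1 library at a time gave 957 to 1501 rises and 832 to 1429 falls against control, the lowest pair without Control 4 and the highest without Treated 5. Rises and falls numbered 756 and 613 without the libraries above 80 CPM of Myl7. In alternatives chosen after seeing the data they numbered 772 and 683 with the mean of the adipocyte markers as a covariate, 219 and 190 with the mean of the mesothelial and epicardial list, which holds the risers Krt18 and Aldh1a2, 494 and 450 with the mean of Msln and Upk3b, and 754 and 687 without Treated 4 and 6. Other scalings, tools and filters kept both counts within 1.5 times. Of 121 named genes called against control, 75 kept the call in every one of the 25 alternatives, 101 in all but the mesothelial list covariate, and 0 changed sign. Of 3250 counts of called list members under the 25 alternatives, 2703 stayed within 1.5 times of the reported count. The 7 calls between the infused groups became 37 with DESeq2, 1 when the libraries above 80 CPM of Myl7 were left out, and 1 to 13 when single libraries were left out. Differences in totals and in the mitochondrial share did not pass the test in any alternative.

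The signs of 5 genes that did not pass the test changed. Atp2a2 ranged from -0.163 to 0.018 (log2 fold change) with single libraries left out and was at 0.005 with the adipocyte covariate, 0.185 with the mesothelial list, 0.039 with Msln and Upk3b, and 0.133 without Treated 4 and 6. Myh7 ranged from -0.296 to 0.172 and was at 0.153 with limma-voom. Myl7 ranged from -0.447 to 0.832 and was at -0.034 with the atrial covariate, -1.053 with the adipocyte one, -1.576 with the mesothelial list and -1.172 with Msln and Upk3b. Nppa ranged from -0.217 to 0.279 and was at -0.073 with limma-voom, -0.111 with the atrial covariate, -0.521 with the adipocyte one, -0.839 with the mesothelial list and -0.615 with Msln and Upk3b. Nppb ranged from -0.229 to 0.324 and was at -0.18 with limma-voom, -0.47 with the mesothelial list, -0.1 with Msln and Upk3b and -0.361 without Treated 4 and 6. The cause was not tested. Genes with too few counts for the filter, such as Il6, were left out of the main test, so whether they differed is not known from it.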

Other observations

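Some gene groups not described above are given here for the ventricles treated with isoproterenol and minocycline, where 10.2% of all tested genes rose and 9.05% fell. Of 14 tested lysosomal cathepsins and cystatins 4 rose and 1 fell. Ctsk, a collagen-degrading protease, was at 2.52, 3.17 and 3.51 CPM in control and at 4.26, 5.66 and 7.23 CPM in treated ventricles, without overlap (log2 fold change 0.92, SE 0.17, edgeR adjusted p = 0.000709), and Ctss, a protease of antigen-presenting cells, rose 1.62-fold. Intercalated disc genes, which join cardiomyocytes end to end, fell in 4 of 15, and in 1 without the Myl7-high libraries. Jup, plakoglobin of the desmosome, fell 1.21-fold, and Xirp2, an actin-binding protein of the disc, fell 1.31-fold from 355, 437 and 518 to 297, 343 and 384 CPM. Both calls were lost without the libraries above 80 CPM of Myl7. Integrins stayed close to the shares of all tested genes, with 3 of 23 higher and 3 lower. Itga7, the laminin-binding chain of muscle, was among those that fell (1.25-fold). The taurine transporter Slc6a6 rose 1.67-fold from 68, 105 and 139 to 139, 163 and 233 CPM.

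Of 19 tested prostaglandin synthesis genes 5 rose, 2 without Treated 2, 3 without Control 4 or Treated 4 and 1 with the covariate of Msln and Upk3b, and 2 fell, 1 without Control 4, 5 or 6 or Treated 1, 4 or 5. Ptgis, prostacyclin synthase, went from 6.74, 10.6 and 18.1 to 15.4, 22.8 and 31.4 CPM (log2 fold change 1.01, SE 0.21, edgeR adjusted p = 0.00312), a call lost with the covariate of Msln and Upk3b. Of 21 tested PPAR, PGC-1 and ERR regulators, nuclear factors that set the level of oxidative genes, 1 fell and 0 rose. The falls numbered 3 without Control 2 or Treated 5 and 2 without Control 5, and the rises 1 without Treated 4. Of 33 tested proteasome genes 3 fell, 6 without Treated 5, and 0 rose.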
